A study of Mus musculus and Homo sapiens with 12 samples.

Results

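The mitochondrial ribosomal proteins studied here are the 78 protein-coding genes of the mouse table whose symbol starts with Mrpl or Mrps followed by a digit, out of 54331 rows, with pseudogenes left out. By structure, 51 of them encode proteins of the large subunit and 26 of the small subunit. The last, Mrps36, is now counted as a subunit of the oxoglutarate dehydrogenase complex. All 78 passed the filter on low values and were tested. The study sequenced mRNA from EMT6, a mouse mammary carcinoma line, and from MDA-MB-231, a human breast cancer line, each as wild type and with PFKFB4 knocked out, with 3 libraries per genotype. PFKFB4 makes and removes fructose 2,6-bisphosphate, an activator of glycolysis. The members are mouse genes, so the values come from 6 libraries: 3 of EMT6 WT and 3 of EMT6 PFKFB4-KO, both grown in high-glucose medium with serum, with no further treatment in the labels. The knockout columns carry a code that the labels do not explain and were taken as the knockout by elimination. The labels call the libraries of each genotype biological replicates. They do not say whether the knockout was 1 clone or whether libraries came from separate cultures. A p-value here therefore reflects only the scatter among these libraries.

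The mitochondrial ribosome sits at the inner membrane of mitochondria and makes the few proteins that mitochondrial DNA encodes, all of them core subunits of the respiratory chain and of ATP synthase. Its rRNAs come from mitochondrial DNA, while every one of its proteins is encoded in the nucleus, made in the cytosol and imported. Many of these proteins descend from the bacterial ribosome, and the others were added during the evolution of mitochondria. Nuclear respiratory factor 1, ETS-family factors of the GABP type and YY1 are known regulators of nuclear genes for mitochondrial proteins.

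To show what these genes carry at their starts, 300-base windows from 250 bases before to 50 bases after the start were read from the RefSeq promoter table (build GRCm38.p6). A window was found for 69 of the 78 genes, 75 windows in all. The letters searched, on both strands, were GCATGCGC for NRF1, CCGGAAG for ETS factors, AAGATGGC for YY1, GGGCGG for SP factors and TATAAA for the TATA box. The windows shown belong to the member that rose most (Mrps6) and a member with an NRF1 match beside an ETS match (Mrpl33). Another is from 1 of a pair of members that share their start region (Mrps11). The rest are from a member whose neighbour across the start had the opposite call in TPM (Mrps12), and the member that fell most (Mrpl18). All windows read 5′ to 3′ on the strand of the gene, with matches on either strand in capitals.
Mrps6 (chr16:92058086-92058385, plus strand): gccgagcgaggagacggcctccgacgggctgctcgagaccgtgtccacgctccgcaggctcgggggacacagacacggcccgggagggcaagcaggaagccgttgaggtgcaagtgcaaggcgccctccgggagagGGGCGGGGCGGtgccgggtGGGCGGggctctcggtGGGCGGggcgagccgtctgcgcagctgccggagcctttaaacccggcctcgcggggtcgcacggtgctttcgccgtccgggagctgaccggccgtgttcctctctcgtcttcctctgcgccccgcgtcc
Mrpl33 (chr5:31613701-31614000, plus strand): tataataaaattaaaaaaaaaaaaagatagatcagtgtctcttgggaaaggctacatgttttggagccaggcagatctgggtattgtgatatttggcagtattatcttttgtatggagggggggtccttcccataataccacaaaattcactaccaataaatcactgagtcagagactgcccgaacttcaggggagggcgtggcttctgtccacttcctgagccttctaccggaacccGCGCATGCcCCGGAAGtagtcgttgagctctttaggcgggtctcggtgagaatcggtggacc
Mrps11 (chr7:78782881-78783180, plus strand): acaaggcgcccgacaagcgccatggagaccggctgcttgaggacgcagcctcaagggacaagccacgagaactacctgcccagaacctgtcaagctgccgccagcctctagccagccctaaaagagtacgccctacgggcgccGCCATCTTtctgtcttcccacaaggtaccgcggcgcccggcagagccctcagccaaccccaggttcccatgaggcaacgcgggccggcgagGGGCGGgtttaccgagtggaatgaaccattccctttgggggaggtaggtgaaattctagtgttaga
Mrps12 (chr7:28741772-28742071, minus strand): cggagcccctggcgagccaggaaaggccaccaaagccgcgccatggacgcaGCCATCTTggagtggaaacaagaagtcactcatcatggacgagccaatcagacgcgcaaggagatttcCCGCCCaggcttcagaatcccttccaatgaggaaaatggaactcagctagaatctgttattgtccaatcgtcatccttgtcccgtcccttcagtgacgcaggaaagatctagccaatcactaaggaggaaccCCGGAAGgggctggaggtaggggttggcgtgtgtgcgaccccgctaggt
Mrpl18 (chr17:12916042-12916341, minus strand): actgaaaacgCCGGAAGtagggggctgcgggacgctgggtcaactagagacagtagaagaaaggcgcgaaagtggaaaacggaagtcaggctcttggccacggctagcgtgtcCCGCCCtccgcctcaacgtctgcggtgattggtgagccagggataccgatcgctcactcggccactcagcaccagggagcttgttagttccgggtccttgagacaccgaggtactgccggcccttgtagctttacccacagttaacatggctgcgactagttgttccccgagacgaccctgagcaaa

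In Mrps6 the capitals hold 4 SP matches, some of them overlapping. Mrpl33 holds the NRF1 letters on the opposite strand, then the ETS letters a single base later. Mrps11 carries a YY1 match on the opposite strand and 1 SP match, Mrps12 has ETS, YY1 and SP matches, and Mrpl18 has ETS and SP matches. ETS letters were in 34.7% of member windows, against 18.3% of the windows of tested genes and 8.86% of all 32851 windows in the table. YY1 letters stood in 16% of member windows, 4.61% of the windows of tested genes and 2.75% of all. For NRF1 the shares were 10.7%, 5.24% and 2.71%. SP letters were found in 52% of member windows and 62.6% of those of tested genes, and TATA letters in 6.67% and 7.04%. Split by call, ETS letters were in 41.2% of the windows of members called higher in the knockout, 32.4% of those not called and 14.3% of the 7 windows of members called lower. For YY1 the shares were 20.6%, 11.8% and 14.3%, and for NRF1 8.82%, 14.7% and 0%. SP letters were in 52.9%, 52.9% and 42.9%, and TATA letters in 2.94%, 11.8% and 0%. These are matches of letters and not tests of binding.

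Most of the mitochondrial ribosomal protein genes that moved were higher in the knockout, by small amounts. Of 78 members, 36 (46.2%) were called higher and 8 (10.3%) lower by limma on log2(TPM + 1), at a Benjamini-Hochberg adjusted p under 0.05 over all 13499 tested genes, and 34 were not called. TPM is a transcript's length-corrected share of its library. Among all tested genes, 14.5% were called higher and 42.3% lower. The median log2 fold change of the members was 0.16, against -0.21 for all tested genes, and 58 members were above 0. Changes were small: 3 members passed a log2 fold change of 0.5 in either direction and 0 passed 1, and the median size of change was 0.21 among members and 0.33 among all tested genes. The median standard error of a member's log2 fold change was 0.058. All 3 knockout libraries lay above all 3 wild-type libraries for 39 members and below them for 11, where 17.9% and 48.3% of all tested genes did so.

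**Figure D1:**
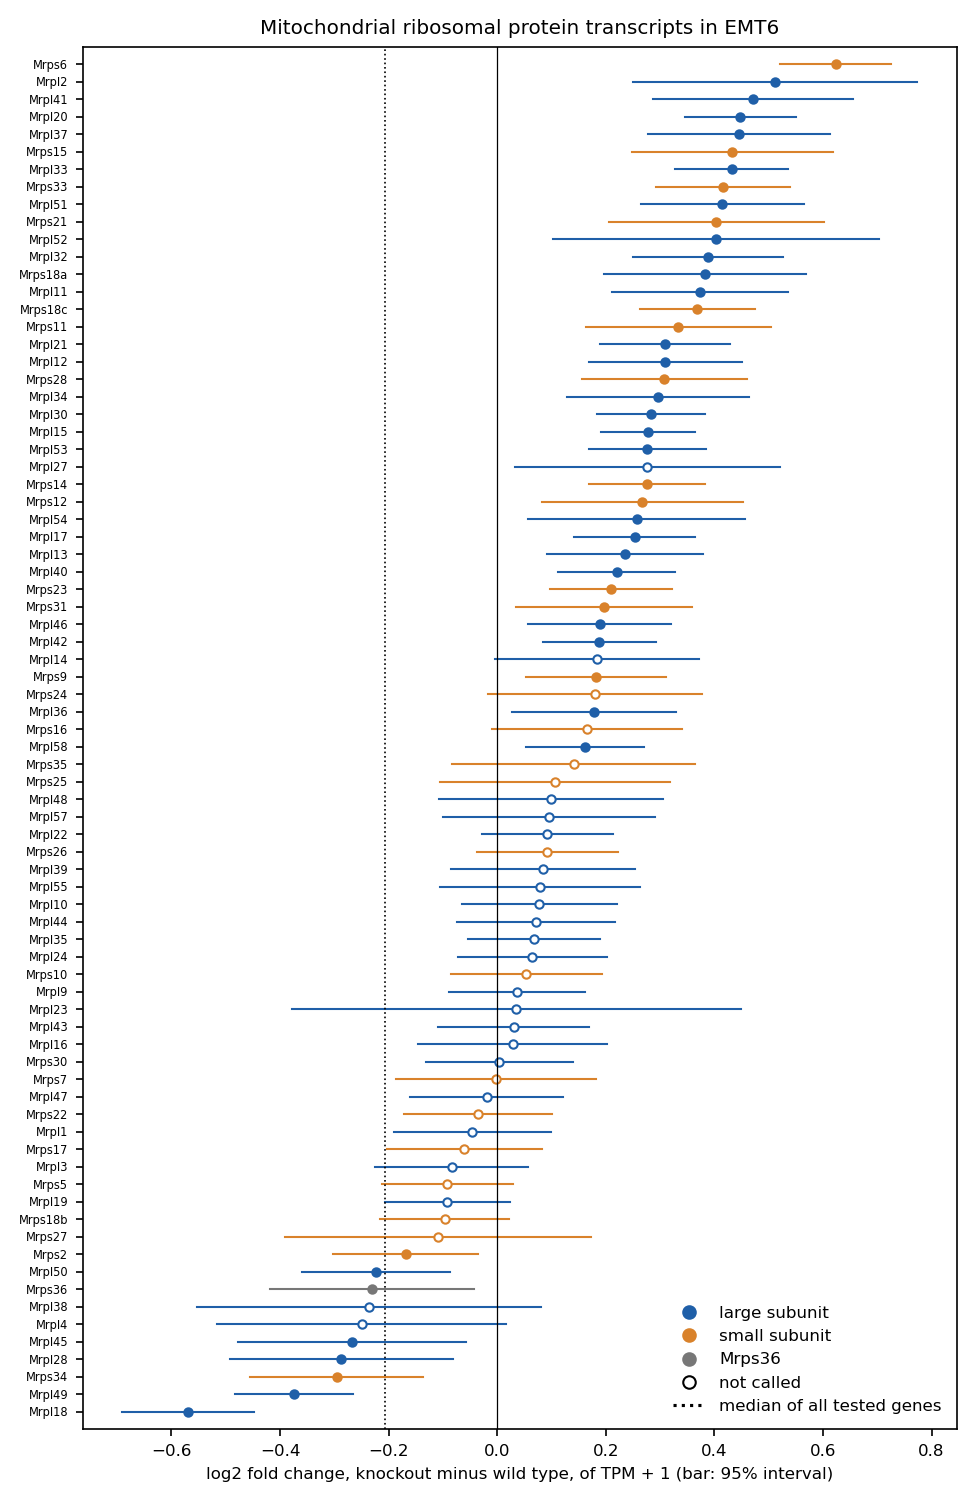
Log2 fold change (knockout minus wild type, of TPM + 1) of each of the 78 members, with its 95% interval from limma, n = 3 libraries per group. Blue marks the large subunit, orange the small subunit and grey Mrps36. Filled points were called and open points were not, and the dotted line is the median of all tested genes at -0.21. The points run from Mrpl18 at -0.57 to Mrps6 at 0.62, with 58 of 78 to the right of 0.

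The size of the group response depended on the scale. TPM values are shares, so a change in some genes moves all others. With the 10 most abundant genes left out, 37 members were higher and 7 lower, against 36 and 8 with all genes. What moved the scale was not tested. Dividing each library by its median gene ratio to the geometric mean of the 6 moved the median log2 fold change of all tested genes up by 0.19. On that scale 60 members were higher and 1 lower, against 26.6% and 25.4% of all tested genes, with a median of 0.40 among members and -0.01 among all tested genes. The sign turned for 12 members, all from below to above 0, of which Mrps2 and Mrps36 had been called lower in TPM. Fold changes in this table also fell with exon length. Removing that trend left 41 members higher and 6 lower, against 23% and 27.3% of genes tested that way, with medians of 0.20 and -0.05. The sign turned for 13 members, 7 upward and 6 downward, among them Mrpl34 (-0.04) and Mrpl54 (-0.0034), which had been called higher in TPM. In all 3 settings (TPM, median-ratio scaling and removal of the length trend), 26 members were called higher and 1, Mrpl18, lower. Of the members called one way in TPM, 0 were called the other way in another of these settings. All 36 members called higher in TPM were also called under median-ratio scaling, and 26 of them after removal of the length trend, while 15 others that were not called in TPM were called higher there. Exon length here is that of all annotated exons of a gene merged, not of a single transcript. Its median was 2394 nt (607 to 8631) for members against 4451 nt for tested protein-coding genes. Across the 78 members, Spearman's rho between log2 fold change and exon length was -0.20 in TPM and 0.63 after the trend was removed. Across the tested protein-coding genes it was -0.39 and 0.01. Genes share libraries and are not independent replicates.

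**Figure D2:**
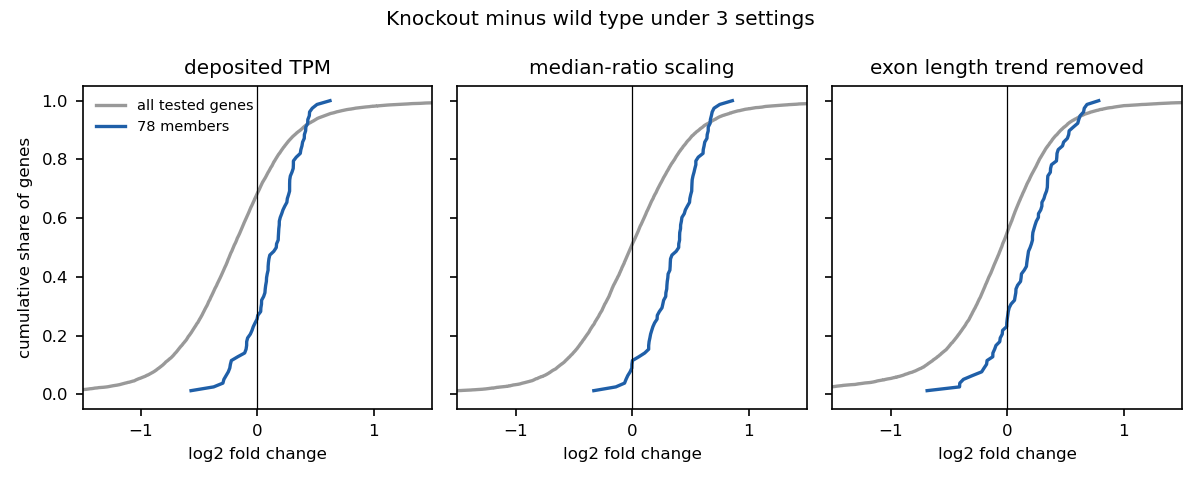
Cumulative share of genes (y axis) by log2 fold change, knockout minus wild type (x axis), under deposited TPM, median-ratio scaling and removal of the exon length trend. The blue line is the 78 members and the grey line all tested genes, with x limited to -1.5 to 1.5. The members lie to the right in each panel, with medians of 0.16, 0.40 and 0.20 against -0.21, -0.01 and -0.05.

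The members together made up a larger share of transcripts in the knockout, as a description with no test. Their summed TPM was 4782, 5058 and 5179 in the wild-type libraries and 5840, 5533 and 5780 in the knockout libraries, and the groups did not overlap. The means were 5006 ± 204 and 5718 ± 162 (SD, n = 3), a ratio of 1.14, which became 1.35 under median-ratio scaling and 1.15 with the 10 most abundant genes of the table left out. The large subunit went from 3121 ± 114 to 3484 ± 111 TPM (ratio 1.12) and the small subunit from 1848 ± 89.1 to 2201 ± 52.3 TPM (ratio 1.19). The transcripts that this ribosome translates had a lower summed level: the 13 coding transcripts of mitochondrial DNA summed to 101598 ± 14171 TPM in wild-type libraries and 52863 ± 6819 in the knockout (ratio 0.52). Most of that sum was mt-Atp8, and without it the sums were 28110 ± 1547 and 17063 ± 1776 TPM (ratio 0.607). Under median-ratio scaling the ratios were 0.614 with mt-Atp8 and 0.716 without it.

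Levels within the group spanned 445-fold in wild-type cells. That span rests on the row of Mrpl23, whose reads may be split with a pseudogene, and was 93.3-fold without it. The median wild-type mean was 38.3 TPM, with quartiles of 23.2 and 65.04 TPM, and the knockout median was 41.4 TPM. The order of the members was nearly the same in both genotypes, with Spearman's rho of 0.97 between mean levels over 78 genes, as a description. At the top stood Mrps21 (530 TPM in wild type), Mrpl18 (454) and Mrps18c (264). At the bottom were Mrpl23 (1.19), Mrpl1 (5.67) and Mrps31 (6.53). Without the top 3, the sum went from 3759 ± 164 to 4372 ± 117 TPM (ratio 1.16).

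Mrps6, the small subunit protein bS6m at the platform, had the largest rise of any member. Its level was 45.6, 47.3 and 48.4 TPM in wild-type libraries and 72.9, 71.6 and 74.7 TPM in knockout libraries. The groups were far apart relative to their spread (log2 fold change 0.62, SE 0.042, limma adjusted p = 0.00025), and the rise was called in all 3 settings. Mrps6 (chromosome 16, 92058270 to 92112227, plus strand) shares up to 305 nt of exons with overlapping genes, among them Slc5a3, and how shared reads were assigned is not given in the sources used here. Mrpl2, or uL2m, lies at the peptidyl transferase centre. It stood at 183, 201 and 225 TPM in wild-type libraries and at 312, 254 and 304 TPM in knockout libraries, with more scatter and no overlap (log2 fold change 0.51, SE 0.107, adjusted p = 0.00862).

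Mrpl41, a protein specific to the mitochondrial large subunit, rose from 18.9, 20.99 and 22.7 TPM to 30.3, 28.5 and 29.0 TPM (log2 fold change 0.47, adjusted p = 0.00327). Mrpl20, which binds the large rRNA early in assembly, went from 94.9, 100 and 92.4 TPM to 133, 130 and 130 TPM (0.45, adjusted p = 0.000626). In both genes the lowest knockout library was above the highest wild-type library. Mrpl37, another mitochondria-specific protein, was at 29.5, 27.5 and 32.5 TPM against 39.9, 40.7 and 42.1 TPM (0.45, adjusted p = 0.0029). For Mrpl33, a small protein near the tRNA exit site, the wild-type values were 188, 205 and 200 TPM and the knockout values 267, 264 and 270 TPM (0.43, adjusted p = 0.000716). All 4 were called higher in each of the 3 settings.

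In the small subunit, the next rises after Mrps6 were Mrps15, Mrps33, Mrps21 and Mrps18c. Mrps15, which binds the central domain of the small rRNA, went from 39.5, 46.2 and 47.4 TPM to 58.9, 59.7 and 61.6 TPM (log2 fold change 0.43, adjusted p = 0.00454). Mrps33, a mitochondria-specific protein, went from 51.8, 57.7 and 53.9 TPM to 72.6, 72.3 and 74.1 TPM (0.42, adjusted p = 0.00136). Mrps21 was the most abundant member in both genotypes. It was at 468, 550 and 571 TPM in wild-type libraries and at 720, 673 and 702 TPM in knockout libraries (0.40, adjusted p = 0.00739), and its call was lost after removal of the length trend (0.11, adjusted p = 0.0868). The other three stayed called in all 3 settings, Mrps33 with the limit that a near-identical pseudogene, Gm5776, was listed at 64.1 TPM in wild-type libraries and 75.1 TPM in knockout libraries.

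**Figure D3:**
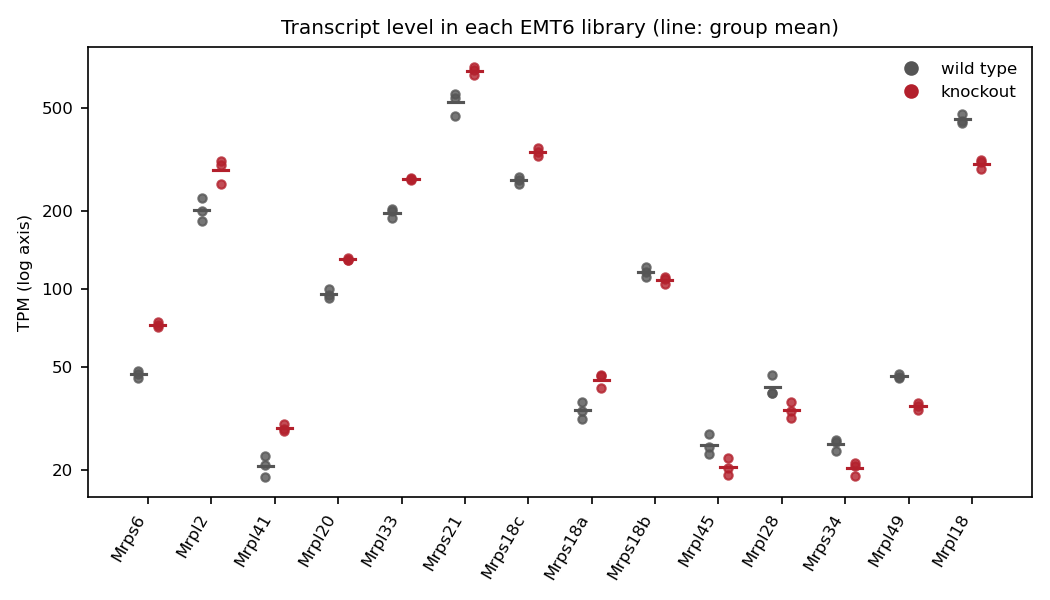
TPM on a log axis in each of the 3 wild-type (grey) and 3 knockout (red) libraries for 14 members, with a line at each group mean. In Mrps6 the knockout points lie at 71.6 to 74.7 TPM and the wild-type points at 45.6 to 48.4 TPM. In Mrpl18 the order is inverted, at 292 to 316 TPM against 440 to 478 TPM. The groups overlap in Mrps18b alone among the 14.

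The large subunit had 24 of 51 members (47.1%) higher and 5 (9.8%) lower, with a median log2 fold change of 0.16. The small subunit had 12 of 26 (46.2%) higher and 2 (7.69%) lower, with a median of 0.17. Among all tested genes 14.5% were higher and 42.3% lower. By origin, 13 of 30 large subunit proteins with a bacterial homolog were higher and 2 lower, and 11 of 21 mitochondria-specific ones were higher and 3 lower. In the small subunit, 9 of 16 proteins with a bacterial homolog were higher and 1 lower, against 3 and 1 of 10 mitochondria-specific ones. After removal of the length trend, 16 of the 30 and 9 of the 21 in the large subunit were higher. In the small subunit 10 of the 16 and 6 of the 10 were, against 23% of genes tested that way. Mrps18a and Mrps18b, relatives of bacterial S18, were counted as mitochondria-specific here. Differences between these classes were not tested.

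Proteins of the same site did not all change together. The flexible stalk that recruits translation factors is built from Mrpl10, Mrpl11 and Mrpl12. Mrpl11 rose from 50.7, 49.0 and 56.5 TPM to 66.7, 70.8 and 65.4 TPM (log2 fold change 0.37, adjusted p = 0.0048). Mrpl12, which also binds the mitochondrial RNA polymerase, rose from 61.7, 67.6 and 67.7 TPM to 84.3, 77.2 and 83.2 TPM (0.31, adjusted p = 0.00568). Mrpl10 anchors the stalk and was not called in TPM, with overlapping groups (0.08, 95% interval -0.07 to 0.22, adjusted p = 0.297), although median-ratio scaling called it higher (0.31, adjusted p = 0.0115).

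At the exit of the peptide tunnel, Mrpl17 was the only one of 5 listed proteins called higher in TPM. It stood at 138, 144 and 150 TPM in wild-type libraries and 178, 170 and 168 TPM in knockout libraries (log2 fold change 0.25, adjusted p = 0.00502). Mrpl22 (0.09, adjusted p = 0.155), Mrpl24 (0.06, adjusted p = 0.358) and Mrpl23 (0.04, adjusted p = 0.871) were not called. The Mrpl23 row held 1.19 TPM in wild type, and its reads may be split with the pseudogene Mrpl23-ps1. That copy was called higher (0.38, adjusted p = 0.0111), so the Mrpl23 row does not show whether this gene changed. Under median-ratio scaling Mrpl22 (0.33) and Mrpl24 (0.30) were called higher too. Mrpl45 links the ribosome to the inner membrane beside the tunnel exit. Its values were 24.5, 23.2 and 27.6 TPM in wild-type libraries and 20.4, 19.2 and 22.3 TPM in knockout libraries (-0.27, adjusted p = 0.0383). That call was lost under median-ratio scaling (-0.04), after removal of the length trend (-0.20), and without knockout replicate 1, knockout replicate 2, wild-type replicate 1 or wild-type replicate 3 (adjusted p from 0.0742 to 0.105).

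The mitochondrial ribosome has 3 relatives of bacterial S18, in different places. Mrps18c, in the small subunit, rose from 255, 271 and 265 TPM to 353, 328 and 340 TPM (log2 fold change 0.37, adjusted p = 0.00126). Mrps18a, which sits in the large subunit, rose from 31.5, 34.0 and 36.7 TPM to 46.1, 41.5 and 46.5 TPM (0.38, adjusted p = 0.00711). Mrps18b was not called: it was at 111, 117 and 122 TPM in wild-type libraries and 105, 110 and 112 TPM in knockout libraries, and the groups overlapped (-0.10, 95% interval -0.22 to 0.02, adjusted p = 0.134). On the median-ratio scale its value was 0.14 (adjusted p = 0.0663). A pseudogene of Mrps18b, Gm13552, was listed at 6.22 TPM in wild type.

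Of single proteins with a known role, Mrps12, at the decoding centre, went from 33.8, 34.6 and 39.0 TPM to 44.6, 40.1 and 45.1 TPM (log2 fold change 0.27, adjusted p = 0.0255). It was not called after removal of the length trend (0.07), nor without knockout replicate 1, knockout replicate 3, wild-type replicate 1 or wild-type replicate 2 (adjusted p from 0.0729 to 0.0802). Mrpl58, a peptidyl-tRNA hydrolase built into the large subunit, went from 61.8, 65.8 and 63.0 TPM to 72.7, 68.7 and 72.3 TPM (0.16, adjusted p = 0.0225). Its call was also lost without knockout replicate 1, knockout replicate 3, wild-type replicate 1 or wild-type replicate 3 (adjusted p from 0.0571 to 0.0779). Mrps30, a large subunit protein despite its name, was level at 7.15, 7.56 and 7.54 TPM against 7.37, 7.40 and 7.54 TPM (95% interval of the log2 fold change -0.13 to 0.14). Median-ratio scaling (0.21) and removal of the length trend (0.34) both called it higher.

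Mrpl18, the uL18m protein that also takes part in the import of 5S rRNA, was the strongest exception. Its level was 478, 446 and 440 TPM in wild-type libraries and 310, 292 and 316 TPM in knockout libraries. The knockout was at 0.673 of the wild-type mean (log2 fold change -0.57, SE 0.050, adjusted p = 0.000505), and the fall was called in all 3 settings. Mrpl18 (chromosome 17, 12911349 to 12916345, minus strand) faces Tcp1, a subunit of the cytosolic chaperonin, and 141 nt of their exons overlap. Tcp1 fell as well, from 338 to 193 TPM (-0.81, adjusted p = 8.38e-05). Both genes were called lower in each setting.

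The other members called lower fell by less. Mrpl49, a mitochondria-specific protein, fell from 46.0, 47.3 and 45.3 TPM to 34.2, 35.6 and 36.5 TPM (log2 fold change -0.37, adjusted p = 0.00128), and was at -0.14 under median-ratio scaling (adjusted p = 0.0515). Mrps34, needed for stability of the small subunit, was at 23.8, 26.3 and 25.7 TPM against 21.4, 19.1 and 20.7 TPM (-0.30, adjusted p = 0.0103), and at -0.07 under median-ratio scaling. Up to 1309 nt of its 2064 nt of exons overlap a neighbouring gene (Mapk8ip3 or Nme3). Mapk8ip3, identical to Mrps34 over 504 nt, had a wild-type mean of 20.4 TPM and a knockout mean of 7.17 TPM. The part of shared reads in the Mrps34 call was not tested. Mrpl28 was at 39.8, 39.7 and 46.5 TPM against 34.0, 32.0 and 36.6 TPM (-0.29, adjusted p = 0.0283). Without knockout replicate 1, knockout replicate 2 or wild-type replicate 3 its adjusted p was 0.055 to 0.0807, and median-ratio scaling gave -0.05.

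Mrpl50 was at 11.5, 11.4 and 11.95 TPM in wild-type libraries and 9.94, 10.1 and 9.37 TPM in knockout libraries (log2 fold change -0.22, adjusted p = 0.0167). It was not called without knockout replicate 3 (adjusted p = 0.0555) or wild-type replicate 3 (0.0518), nor with the replicate number as a block (0.0663). Mrps2, next to the mRNA exit, went from 16.4, 15.1 and 16.4 TPM to 13.8, 14.2 and 14.3 TPM (-0.17, adjusted p = 0.0401). Its adjusted p was 0.0816 to 0.121 when any library but wild-type replicate 2 was left out, and its log2 fold change was 0.06 under median-ratio scaling and -0.06 after length removal. Mrps36, the dehydrogenase subunit, was at 34.5, 39.1 and 39.5 TPM against 29.9, 31.7 and 34.2 TPM (-0.23, adjusted p = 0.0432). The call was lost without knockout replicate 1, knockout replicate 2, wild-type replicate 2 or wild-type replicate 3 (adjusted p from 0.0993 to 0.125), and median-ratio scaling gave 0.0016. A pseudogene that is 99% identical to it over 309 nt, Mrps36-ps2, was listed at 25.1 and 20.3 TPM in the respective groups, and how reads were split between them is not known.

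Where a member lies in the genome went with part of this pattern. Members are spread over 17 chromosomes. On the first 35 Mb of chromosome 17, 240 of 296 tested protein-coding genes were called lower and 3 higher, with a median log2 fold change of -0.64, against -0.24 on the rest of the chromosome and -0.22 for all 11104 tested protein-coding genes. The 3 members in that stretch, Mrpl18, Mrps34 and Mrpl28, were all among the 8 called lower, and genes within 2 Mb of them had medians of -0.81, -0.67 and -0.64. Without them 36 members were higher and 5 lower. Mrps18b lies just past the limit, and Mrpl2 and Mrps18a, further along the same chromosome, rose beside neighbours with a median of -0.26. The part of chromosome 17 in these calls was not tested. Over all chromosomes, 72 of 78 members were above the median of their neighbours within 2 Mb, and Spearman's rho between a member and its neighbours' median was 0.33 over 78 members.

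**Figure D4:**
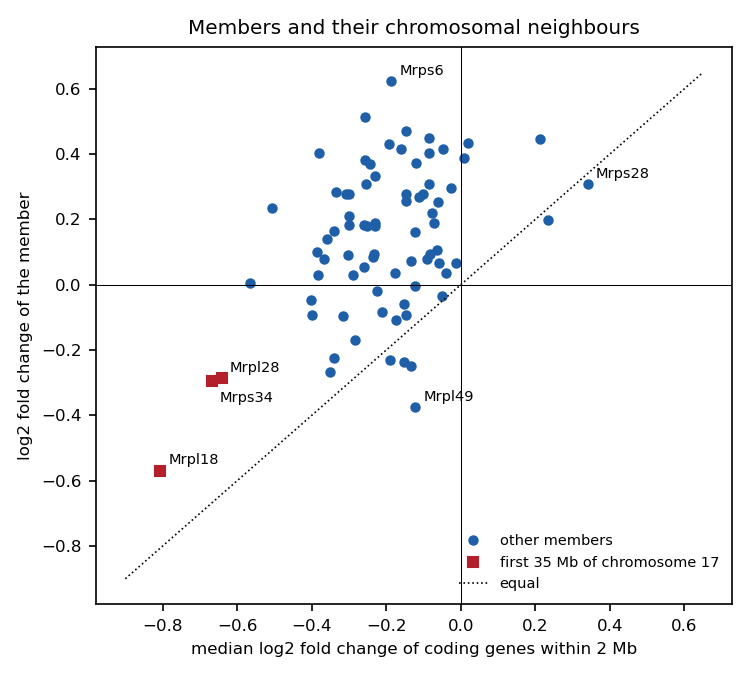
Log2 fold change of each member (y axis) against the median log2 fold change of tested protein-coding genes within 2 Mb (x axis). Red squares are the 3 members on the first 35 Mb of chromosome 17, and the dotted line marks equal values. Most points, 72 of 78, lie above that line, and the red squares lie at the far left, with neighbour medians of -0.81 to -0.64.

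Many of these genes start back to back with another gene. A start facing away from the member's own, within 1000 bp upstream or with up to 500 bp of overlap, was found for 26 members, and 24 of those partners were tested. Of the partners, 8 (33.3%) were called higher, 10 (41.7%) lower and 6 not, with a median log2 fold change of -0.11, against 14.5% and 42.3% of all tested genes. Of the 8 called higher, 2 (Mrps11 and Mrpl46) are members themselves. Among the 15 members called higher that had a tested partner, the partner was also higher in 7, lower in 4 and not called in 4. Mrps11 and Mrpl46 are themselves such a pair: Mrps11 was at 0.33 (adjusted p = 0.00867) and Mrpl46 at 0.19 (adjusted p = 0.0264), with 173 nt of exons in common. Mrpl32 (0.39) rose beside Psma2, a proteasome subunit (0.43), and Mrpl36 (0.18) beside Ndufs6, a subunit of respiratory complex I (0.41).

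Opposite calls across a shared start were seen in TPM too. Mrps12 (0.27) faces Sars2, the mitochondrial seryl-tRNA synthetase, which was called lower (-0.33, adjusted p = 0.0133). Sars2 was not called under median-ratio scaling (-0.14, adjusted p = 0.217) or after removal of the length trend (-0.18, adjusted p = 0.0969). Mrps12 was not called after removal of that trend either (0.07). Mrpl2 (0.51) faces Klc4, a kinesin light chain, which was also called lower (-0.26, adjusted p = 0.0275). Klc4 was not called under median-ratio scaling (-0.07, adjusted p = 0.52) and was lower after removal of the length trend (-0.22, adjusted p = 0.0378). Mrpl49 fell while its partner Fau, which encodes ribosomal protein S30 of the cytosol, was not called (0.18, adjusted p = 0.114). The partners named here were chosen after their values were seen.

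Reads from near-identical copies limit some members. Processed pseudogenes at least 95% identical over 200 nt were found for 19 members, and for 7 members such a copy reached 1 TPM or more. The clearest case was Mrpl23. Its own row held 1.32, 1.05 and 1.20 TPM in wild-type libraries and 1.90, 1.02 and 0.92 TPM in knockout libraries, the lowest level of any member. Mrpl23-ps1, identical over 540 nt, was listed at 46.1 TPM in wild-type libraries and 60.4 TPM in knockout libraries (log2 fold change 0.38, adjusted p = 0.0111). Added together the pair came to 47.3 ± 4.07 and 61.6 ± 4.46 TPM. The annotated exons differ in length, at 4883 nt for Mrpl23 and 580 nt for the copy. TPM is length-corrected, so this sum is not a level of Mrpl23. Which locus the reads came from cannot be told apart. Exons overlapping another protein-coding gene were found for 23 members. Leaving out the 29 members with either limit left 49, of which 27 were higher and 4 lower.

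The remaining low members were tested with little signal. Mrps31, a mitochondria-specific small subunit protein, was at 6.5, 6.52 and 6.58 TPM in wild-type libraries and 7.52, 8.20 and 7.20 TPM in knockout libraries (log2 fold change 0.20, adjusted p = 0.0449). Its call held only when knockout replicate 3 was the library left out, with adjusted p of 0.0897 to 0.117 without any other. Mrpl1, part of the stalk where used tRNAs leave, was at 5.53, 5.76 and 5.74 TPM against 5.39, 5.34 and 5.67 TPM and was not called (-0.05, adjusted p = 0.536). After removal of the length trend it was called higher (0.18, adjusted p = 0.048).

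Genes that work with this ribosome were described by set lists. Of 5 mitochondrial ribosomal proteins with other kinds of name, 2 (40%) were higher and 0 lower, with a median of 0.19, against 14.5% and 42.3% of all tested genes. Aurkaip1, a small subunit protein that also binds Aurora A kinase, rose more than any member, from 59.3, 61.9 and 64.3 TPM to 107, 102 and 108 TPM (log2 fold change 0.76, adjusted p = 0.000194). Dap3, a GTP-binding protein of the small subunit, went from 66.1 ± 5.53 to 78.6 ± 2.01 TPM (0.25, adjusted p = 0.0205).

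Assembly factors and rRNA modification enzymes had 2 of 25 (8%) higher and 6 (24%) lower, against 14.5% and 42.3% of all tested genes. The median was -0.10. Under median-ratio scaling 4 (16%) were higher and 1 (4%) lower, against 26.6% and 25.4% of all tested genes. After removal of the length trend 5 (20%) were higher and 3 (12%) lower, against 23% and 27.3% of genes tested that way. Malsu1, which keeps the large subunit from joining early, rose from 19.0 ± 1.33 to 25.5 ± 1.12 TPM (0.41, adjusted p = 0.00375). Ddx28, an RNA helicase of large subunit assembly, was also higher (0.22, adjusted p = 0.0187). Gtpbp10, a GTPase of the same pathway, fell from 4.54, 3.59 and 3.86 TPM to 2.41, 2.39 and 2.22 TPM (-0.58, adjusted p = 0.00301). Trub2, a pseudouridine synthase, was lower in TPM (-0.43, adjusted p = 0.00641) but not called under median-ratio scaling (-0.22) or after removal of the length trend (-0.11).

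For translation factors, 1 of 14 (7.14%) was higher and 6 (42.9%) lower, where all tested genes had 14.5% and 42.3%. The median of the factors was -0.15. Under median-ratio scaling the counts were 4 (28.6%) and 1 (7.14%), against 26.6% and 25.4% of all tested genes. After length removal the counts were 6 (42.9%) and 1 (7.14%), against 23% and 27.3% of genes tested that way. Slirp, which stabilises mitochondrial mRNAs, rose from 194, 224 and 209 TPM to 257, 256 and 254 TPM (log2 fold change 0.29, adjusted p = 0.00705). Gfm2, a ribosome recycling factor, fell (-0.56, adjusted p = 0.00112), and Taco1, an activator of translation of a complex IV subunit, fell as well (-0.35, adjusted p = 0.00705). Gfm2 was not called after length removal (-0.13), nor Taco1 under median-ratio scaling (-0.17).

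Aminoacyl-tRNA synthetases of mitochondria, with their amidotransferase subunits, had 3 of 20 (15%) higher and 8 (40%) lower, near the 14.5% and 42.3% of all tested genes, with a median of -0.16. The counts were 6 (30%) and 5 (25%) under median-ratio scaling, near the 26.6% and 25.4% of all tested genes. After length removal the counts were 7 (35%) and 4 (20%), against 23% and 27.3% of genes tested that way. The row of Lars2, for leucine, rose from 359, 314 and 343 TPM to 679, 777 and 850 TPM (log2 fold change 1.18, adjusted p = 0.000402). Its wild-type mean of 339 TPM was far above the median of 7.48 TPM for this list. Which reads fill that row was not tested. Fars2, for phenylalanine, rose from 7.17 ± 2.1 to 13.9 ± 2.55 TPM (0.89, adjusted p = 0.0183). Wars2, for tryptophan, fell from 4.97 ± 0.24 to 2.23 ± 0.338 TPM (-0.89, adjusted p = 0.000943). Iars2, for isoleucine, was lower in TPM (-0.45, adjusted p = 0.00137) and not called after length removal (-0.05).

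**Figure D5:**
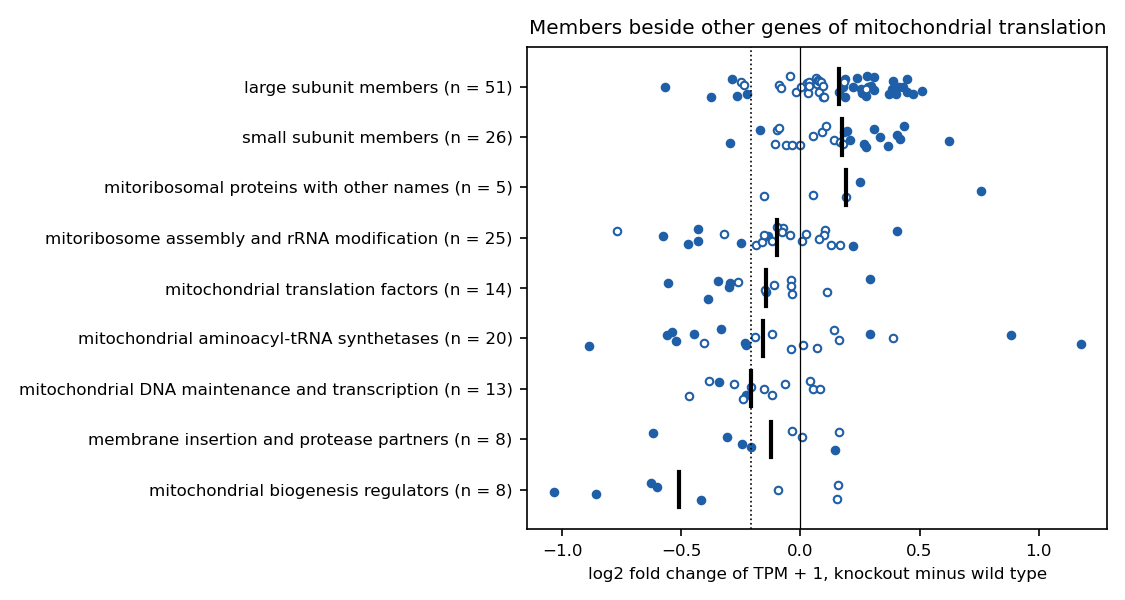
Log2 fold change of TPM + 1 (x axis) for members by subunit and for the other lists of mitochondrial translation, with tested genes as points, filled where called, and a bar at each median. The dotted line marks the median of all tested genes at -0.21. Both subunits have medians above 0, at 0.16 and 0.17, while assembly factors (-0.10), translation factors (-0.15), tRNA synthetases (-0.16), DNA maintenance genes (-0.21) and biogenesis regulators (-0.51) have medians below 0. Under median-ratio scaling, not drawn, the medians of the latter lists were 0.10, 0.09, 0.06, -0.0047 and -0.29, in that order. On that scale each subunit was at 0.40 and all tested genes at -0.01.

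Genes that maintain and transcribe mitochondrial DNA had 0 of 13 higher and 2 (15.4%) lower, against 14.5% and 42.3% of all tested genes, with a median of -0.21. Tfam, which packages and transcribes this DNA, was at 39.5 ± 2.02 TPM in wild-type libraries and 30.9 ± 0.698 TPM in knockout libraries (log2 fold change -0.34, adjusted p = 0.00281). Twnk, its helicase, was at -0.23 (adjusted p = 0.02). Neither was called under median-ratio scaling or after length removal. There 2 (15.4%) and 1 (7.69%) genes of the list were higher, against 26.6% and 23% of genes tested that way. In both settings 0 were lower, against 25.4% and 27.3%. Of 8 membrane insertion and protease partners, 1 (12.5%) was higher and 4 (50%) lower in TPM, against 14.5% and 42.3% of all tested genes. In each of the other settings 3 (37.5%) were higher and 1 (12.5%) lower, beside the shares for those settings just given. Lonp1, a matrix protease, was at 0.14 (adjusted p = 0.0318). Clpx, the unfoldase of another matrix protease, fell from 14.2 ± 0.066 to 8.94 ± 0.716 TPM (-0.62, adjusted p = 0.000999), and Letm1, an inner membrane protein, was lower in TPM alone (-0.31, adjusted p = 0.00863).

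Of 10 listed transcription regulators of mitochondrial biogenesis, 8 were tested, and 0 were higher and 5 (62.5%) lower. All tested genes had 14.5% and 42.3%, and the median of the list was -0.51. Under median-ratio scaling 2 (25%) were higher and 4 (50%) lower, against 26.6% and 25.4% of all tested genes. After length removal 2 (25%) were higher and 3 (37.5%) lower, against 23% and 27.3% of genes tested that way. Yy1 was at 21.4, 17.9 and 15.5 TPM in wild-type libraries and 9.78, 10.4 and 8.57 TPM in knockout libraries (log2 fold change -0.86, adjusted p = 0.00275). Pprc1, a coactivator related to PGC-1alpha, fell from 54.2 ± 5.68 to 34.6 ± 1.16 TPM (-0.63, adjusted p = 0.00162). Both were called in all 3 settings. The GABP subunit Gabpa, named after its value was seen, was at 38.1, 26.2 and 26.9 TPM against 11.3, 15.5 and 15.9 TPM (-1.04, adjusted p = 0.00525). Nrf1, also named afterwards, was at -0.42 in TPM (adjusted p = 0.00569). It was not called under median-ratio scaling (-0.20, adjusted p = 0.0633) or after length removal (0.00066). The bearing of these levels on the members was not tested.

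Counts for a pair of related groups were as follows. Cytosolic ribosomal proteins had 45 of 81 (55.6%) higher and 6 lower, with a median of 0.18, and nuclear subunits of the respiratory chain had 55 of 76 (72.4%) higher and 6 lower, with a median of 0.34, beside 46.2% and 0.16 for the members. They had medians of 0.42 and 0.58 under median-ratio scaling and of 0.18 and 0.25 after length removal, beside 0.40 and 0.20 for the members. The differences between the groups were not tested.

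As a check of the labels, Pfkfb4 transcript was at 10.2, 10.51 and 10.4 TPM in wild-type libraries and 6.96, 6.87 and 8.24 TPM in knockout libraries (log2 fold change -0.45, adjusted p = 0.00487). It was not called under median-ratio scaling (-0.23, adjusted p = 0.0632) or after length removal (-0.18, adjusted p = 0.124). In TPM 42.3% of all tested genes were called lower, with a median of -0.21, so this fall does not settle which columns are the knockout. A transcript can remain after a deletion that ends the protein, which was not tested here. Of 6 epithelial markers, Krt8 was at 482 TPM in wild type against 535 TPM without PFKFB4, Krt18 at 36.3 and 15.5, Krt14 at 36.5 and 3.94 and Krt19 at 1.95 and 0.018, while Epcam and Cdh1 were under 1 TPM in both. The list's sum was 530 to 584 TPM in wild type, against 542 to 568 TPM. Of 6 mesenchymal markers, Vim was at 2711 and 3292 TPM, Fn1 at 616 and 451, Col1a1 at 200.1 and 52.4, Col3a1 at 17.7 and 0.022 and Pdgfrb at 1.24 and 0.927, and Cdh2 was under 1 TPM in both. That sum was 3441 to 3690.5 TPM in wild type, against 3695 to 3850.4 TPM. The part of these differences in the values of the members was not tested. Of 8 leukocyte markers 1, Cd14, passed 1 TPM, with the list's sum at 25.6 to 25.9 TPM in wild type, against 23.1 to 25.5 TPM without PFKFB4, and Ptprc was at or near 0. None of 5 endothelial and 2 erythroid markers passed it (0 and 0). Genes at 1 TPM or more numbered 12350 to 12426 per wild-type library and 11871 to 12015 per knockout library. In such bulk libraries, a change in every cell and a change in some of the cells cannot be told apart.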

How the data were processed

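Messenger RNA from EMT6 cells was sequenced in 6 libraries. The mouse build was mm10, and Subread 1.6.4 with featureCounts, TopHat2 2.1.1 and CASAVA 1.8.2 were used, per the submitters' processing notes. Strand handling and other settings: not given in the sources used here. Per gene, the authors deposited TPM values, which sum to the same total in each library, so the read depth behind a value is unknown. GENCODE M21 (GRCm38) gave symbols, positions and exon lengths, and 54097 of 54331 identifiers had a symbol. The human table was not used here.

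Genes reaching 0.5 TPM in 3 or more of the 6 libraries were tested on log2(TPM + 1) by limma-trend (limma 3.58.1, R 4.3.3), with Benjamini-Hochberg adjustment over 13499 genes and calls at 0.05. This scale understates the change of low genes. The written design allowed for counts or normalized values, and the second was used. The fit was tested on simulated data. Copies were sought with blastn 2.17.0+ among transcripts. Values are means ± SD.

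The members and lists were chosen with earlier results of these data known. Members named were those with a set role, up to 5 rises and 5 falls per subunit, the 3 highest and 3 lowest in wild type, and any whose call turned direction. For each companion list, up to 2 genes per direction with the smallest adjusted p were named. Alternatives were median-ratio scaling, no filter, a filter of 1 TPM, a pseudocount of 0.1, no trend, each library left out, the replicate number as a block, the 10 most abundant genes left out and removal of a lowess curve on exon length. Leaving out members with shared reads or on the start of chromosome 17 was chosen after seeing the data.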

Additional observations from a re-analysis of the deposited data

How the results depend on the processing

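The count of members called higher (36) went to 60 under median-ratio scaling, which moves the centre of all genes by construction, and kept within 1.5 times elsewhere, with 27 to 34 when 1 library was left out. The count called lower (8) went to 1 under median-ratio scaling, 5 with no filter, 4 without members with shared reads and 5 without those on the first 35 Mb of chromosome 17. Leaving out 1 library gave 3 to 8, with 4 without knockout replicate 1, 4 without knockout replicate 2 and 3 without wild-type replicate 3. The cause was not tested for the count with no filter or without these libraries. With every library left out in turn, 27 members stayed higher and 3 lower. Deviations of same-numbered libraries from their group means had r of 0.065, -0.017 and 0.073, against -0.12 to 0.062 for libraries of unlike number. That cannot tell whether same-numbered libraries were handled together. The main fit did not pair them, and the replicate block gave 28 higher and 7 lower. The summed TPM ratio of 1.14 became 1.35 under median-ratio scaling. Of all 78 members, the sign turned for 12 under median-ratio scaling and 13 after removal of the length trend, 2 of them called in TPM in each case. Among the members named by the rule, it turned under median-ratio scaling for Mrpl1 (0.16), Mrps18b (0.14), Mrps2 (0.056) and Mrps36 (0.0016), and after removal of the length trend for Mrpl1 (0.18) and Mrpl22 (-0.12). Leaving out 1 library gave -0.15 to 0.15 for Mrpl23, below 0 without knockout replicate 1 or wild-type replicate 2, and -0.019 to 0.016 for Mrps30, below 0 without knockout replicate 3 or wild-type replicate 1. The cause was not tested. Read depth is unknown, and values near 1 TPM, as for Mrpl23, limit what can be detected.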
